A study of Mus musculus with 12 samples.

Results

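Retinoid metabolism and signalling were followed through 9 genes in cultured mouse keratinocytes: Dhrs9, Rdh10, Rdh12, Aldh1a3, Aox4, Crabp2, Cyp26b1, Rarb and Rarg. They were chosen by gene symbol, with the differences between these arrays already known, so their values are given as a description and no p-value is attached to them. Each had 1 transcript cluster (the set of probes for a gene) with a single symbol, and all 9 were among the 15868 genes that passed the filter on low values. Keratinocytes make up most of the epidermis; here they were primary cultures of the FVB/N strain, and their RNA was measured on 12 Affymetrix Mouse Gene 1.0 ST arrays. The 4 groups held 3 arrays each. They were the wild-type control, wild-type cells transduced with v-rasHa (a viral oncogenic Hras; RAS cells), the MT-HGF control, and mock-transduced MT-HGF cells exposed for 24 h to AG1478 while kept in 8% serum. The notes on all arrays other than those with AG1478, controls included, mention a 3-day RAS transduction. How the controls were handled in that step is unclear. In MT-HGF mice a metallothionein promoter, active in many cell types, drives hepatocyte growth factor (HGF), which activates the receptor MET. AG1478 is a kinase inhibitor of the epidermal growth factor receptor (EGFR). The design asks how the oncogene, the HGF transgene and EGFR inhibition each alter the keratinocyte transcriptome.

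Retinol (vitamin A) enters cells and is stored as esters, and dehydrogenases convert it reversibly to retinal. Retinaldehyde dehydrogenases, and to a lesser degree aldehyde oxidases, oxidise retinal irreversibly to retinoic acid. Binding proteins carry retinoic acid to nuclear receptors, which act as dimers on paired short motifs in DNA, and cytochromes of the CYP26 family break it down. In epidermis, retinoids are known to affect keratinocyte growth and terminal differentiation.

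Values are deposited log2 values, so a difference of 1 is 2-fold. A gene is called when its adjusted p in limma's moderated test, over all 15868 genes, lay under 0.05. Array medians lay between 6.77 and 6.84. As a background for each array, the 95th percentile of 162 chemosensory receptor genes, which keratinocytes are not expected to use, lay between 6.82 and 7.22. These 162 were the ones that passed the filter on low values, which raises this background. All 1260 chemosensory clusters gave a lower one, of 6.09 to 6.34. The keratinocyte label was checked on 14 markers, whose mean lay between 11.3 and 11.5 on every array. Krt5 and Krt14, the basal keratins, had group means of 13.4 to 13.5 and 12.9 to 13.0. The leukocyte marker Ptprc and the endothelial markers Pecam1 and Cdh5 were above background on 0 of 12 arrays. Against the lower background Pecam1 was above it on 6 arrays. Other leukocyte markers differed from Ptprc: of 10 tested, 4 to 5 were above background on each wild-type array. On each RAS array 1 to 2 were, and 1 on each MT-HGF and AG1478 array. The melanocyte genes Dct and Tyrp1 had group means of 11.5 to 11.8 and 12.1 to 12.6, and the fibroblast genes Pdgfra, Dcn and Col1a2 were above background on all 12 arrays. In such bulk samples, fewer cells of a type and less RNA per cell cannot be told apart.

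Dhrs9, a short-chain dehydrogenase that oxidises retinol and hydroxysteroids, had the widest range among the 9 genes. Its log2 values were 5.82, 5.93 and 6.02 in wild type, 9.67, 9.42 and 9.71 in RAS cells, 9.43, 9.37 and 9.50 in MT-HGF cells, and 8.17, 8.29 and 8.52 with AG1478. All 3 wild-type arrays lay below the array background, the RAS and MT-HGF arrays overlapped at the top, and the AG1478 arrays lay between, apart from the other groups. RAS cells were higher than wild type by 3.67 ± 0.095 (log2, SE, n = 3 per group), which is at least 6.37-fold when the wild-type level is set at the background. MT-HGF cells were higher by 3.51 ± 0.095 (at least 5.67-fold) and AG1478-treated cells by 2.40 ± 0.095 (at least 2.63-fold). AG1478-treated cells were 2.15-fold below untreated MT-HGF cells (-1.11 ± 0.095) and 2.42-fold below RAS cells (-1.27 ± 0.095). The difference of MT-HGF from RAS cells, -0.17 ± 0.095, was not called.

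The promoter of Dhrs9 is shown because this gene went from below background to well above it. The 300 bases run from 250 before to 50 after the RefSeq start (GRCm38.p6, chr2:69380212-69380511, plus strand), and capitals mark a receptor motif of 6 bases on the opposite strand, at -88 to -83 from the start.
Dhrs9: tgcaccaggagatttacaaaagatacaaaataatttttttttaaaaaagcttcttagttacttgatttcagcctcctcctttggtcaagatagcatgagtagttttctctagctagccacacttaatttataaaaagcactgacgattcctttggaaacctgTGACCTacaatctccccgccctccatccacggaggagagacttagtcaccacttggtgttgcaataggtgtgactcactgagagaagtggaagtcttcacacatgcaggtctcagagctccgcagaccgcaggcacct
Motifs searched were AGGTCA or GGGTCA or AGTTCA or GGTTCA, on both strands. A single motif stood in 43.7% of the 32851 promoters of this table, and in 4 of the 7 promoters listed for 6 of the genes here (Dhrs9, Rdh12, Aox4, Cyp26b1, Rarb and, with 2 starts, Rarg).

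Rdh10, the retinol dehydrogenase required for retinoic acid synthesis in the embryo, had a nearly flat profile. The arrays gave log2 values of 8.93, 8.94 and 9.03 in wild type, 9.24, 9.20 and 9.21 in RAS cells, 8.95, 8.90 and 8.96 in MT-HGF cells, and 8.90, 9.05 and 8.70 with AG1478. The RAS arrays lay above all others, and the other 3 groups overlapped. RAS cells were higher than wild type by 0.25 ± 0.077 (log2), a call that was lost without wild-type replicate 1 (0.23), wild-type replicate 2 (0.23) or RAS replicate 1 (0.23). They were also above MT-HGF cells, where the difference of MT-HGF from RAS was -0.28 ± 0.077 (-0.26 and not called without MT-HGF replicate 2), and above AG1478-treated cells (-0.33 ± 0.077). MT-HGF and AG1478-treated cells differed from wild type by -0.03 ± 0.077 and -0.09 ± 0.077, and AG1478-treated from MT-HGF cells by -0.06 ± 0.077, none of them called.

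Rdh12, best known as the photoreceptor enzyme that reduces retinal to retinol, stepped up through the groups without overlap between any pair of them. Its log2 values were 9.34, 9.14 and 9.21 in wild type, 9.60, 9.76 and 9.81 in RAS cells, 10.47, 10.60 and 10.43 in MT-HGF cells, and 10.14, 10.22 and 10.03 with AG1478. Wild type was lowest, followed by RAS, AG1478-treated and untreated MT-HGF cells. Against wild type the difference was 0.49 ± 0.080 in RAS cells, 1.27 ± 0.080 (2.41-fold) in MT-HGF cells and 0.90 ± 0.080 (1.87-fold) with AG1478. MT-HGF cells lay 1.71-fold above RAS cells (0.78 ± 0.080), and AG1478-treated cells lay below untreated ones by -0.37 ± 0.080 and above RAS cells by 0.41 ± 0.080. Each of these 6 differences was called.

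Aldh1a3, a retinaldehyde dehydrogenase that makes retinoic acid, was low in wild type and high elsewhere. Log2 values were 7.37, 7.30 and 7.21 in wild type, 9.39, 9.07 and 9.17 in RAS cells, 9.22, 9.33 and 9.37 in MT-HGF cells, and 9.01, 8.95 and 9.02 with AG1478. The wild-type arrays lay just above background, the RAS and MT-HGF arrays overlapped, and the AG1478 arrays lay narrowly below both. The gene was higher than in wild type by 1.91 ± 0.080 (3.76-fold) in RAS cells, 2.01 ± 0.080 (4.03-fold) in MT-HGF cells and 1.70 ± 0.080 (3.24-fold) with AG1478. MT-HGF differed from RAS cells by 0.10 ± 0.080, not called. AG1478-treated cells were below untreated MT-HGF cells by -0.31 ± 0.080, a call lost without MT-HGF replicate 2 (-0.30) or 3 (-0.28). Their difference from RAS cells, -0.21 ± 0.080, was called but lost its call under 11 of 20 alternatives, among them leaving out wild-type replicate 2 or 3, RAS replicate 1 or 3, MT-HGF replicate 2 or any AG1478 replicate, which gave -0.24 to -0.13.

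Aox4, an aldehyde oxidase of skin and Harderian gland that can oxidise retinal to retinoic acid, was the member with its highest level under AG1478 by a wide margin. Its log2 values were 7.65, 7.64 and 7.74 in wild type, 7.85, 8.10 and 8.02 in RAS cells, 8.22, 8.50 and 8.73 in MT-HGF cells, and 10.51, 10.54 and 10.41 with AG1478. No pair of groups overlapped, and every AG1478 array lay more than 1 log2 unit above every other array. AG1478-treated cells were 4.02-fold above untreated MT-HGF cells (2.01 ± 0.10), 7.02-fold above wild type (2.81 ± 0.10) and 5.65-fold above RAS cells (2.50 ± 0.10). Without the compound, MT-HGF cells were 1.75-fold above wild type (0.81 ± 0.10) and 1.41-fold above RAS cells (0.49 ± 0.10). RAS cells were above wild type by 0.31 ± 0.10, a call lost without wild-type replicate 1 (0.30) or 2 (0.29), without RAS replicate 2 (0.26) or 3 (0.30), and with values centred on array medians (0.30).

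The Aox4 promoter is shown because this gene differed most between AG1478-treated and untreated MT-HGF cells among the 9. It lies at chr1:58210147-58210446 on the plus strand (RefSeq, GRCm38.p6), and capitals mark a motif on the opposite strand, at -115 to -110.
Aox4: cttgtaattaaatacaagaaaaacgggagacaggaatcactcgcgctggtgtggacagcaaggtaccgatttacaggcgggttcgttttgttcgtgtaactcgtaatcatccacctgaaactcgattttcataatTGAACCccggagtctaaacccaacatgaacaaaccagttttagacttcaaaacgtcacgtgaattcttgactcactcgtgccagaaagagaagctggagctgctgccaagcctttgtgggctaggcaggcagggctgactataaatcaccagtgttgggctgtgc
The window holds this motif alone, with none in direct repeat with it at 1, 2 or 5 bases.

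**Figure D1:**
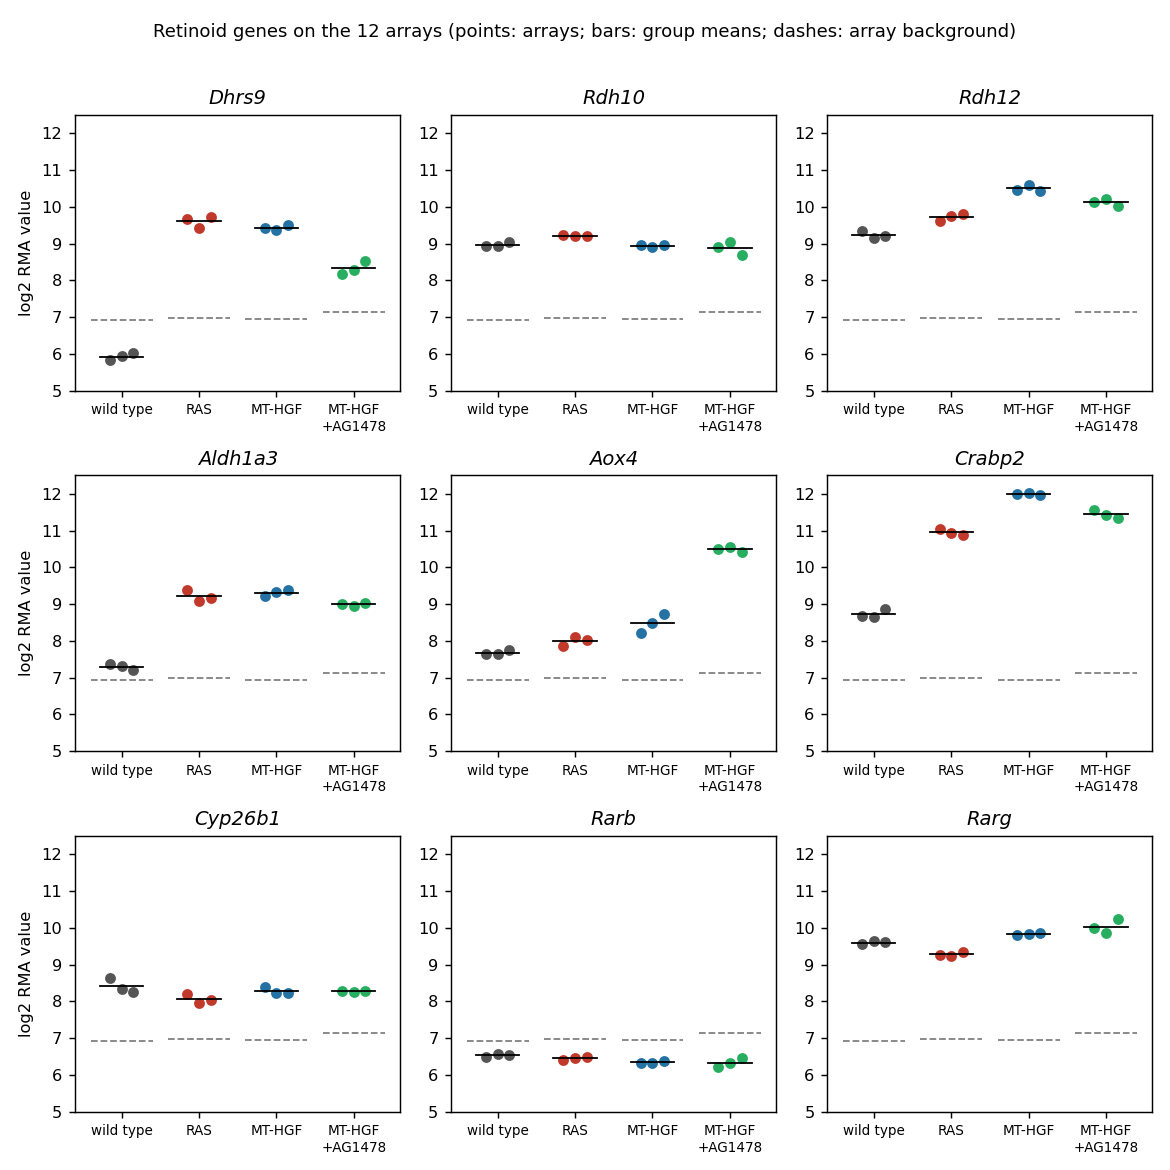
Log2 RMA value (vertical axis) of each of the 9 retinoid genes on the 12 arrays, by group (horizontal axis). Points are arrays, bars are group means and dashed lines the group's mean array background. Dhrs9 is below background in wild type alone, at 5.82 to 6.02, Aox4 stands highest with AG1478, at 10.41 to 10.54, and Rarb lies below background in all groups.

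Crabp2, which carries retinoic acid to its receptors and is a classic retinoid-responsive gene of skin, separated all 4 groups. The log2 level was 8.68, 8.65 and 8.87 in wild type, 11.04, 10.92 and 10.88 in RAS cells, 12.00, 12.02 and 11.97 in MT-HGF cells, and 11.56, 11.42 and 11.35 with AG1478. Wild type was lowest, then RAS, AG1478-treated and untreated MT-HGF cells, with no overlap between neighbours. Against wild type it was 4.64-fold higher in RAS cells (2.21 ± 0.076), 9.62-fold in MT-HGF cells (3.27 ± 0.076) and 6.53-fold with AG1478 (2.71 ± 0.076). MT-HGF cells were 2.07-fold above RAS cells (1.05 ± 0.076). AG1478-treated cells were 1.47-fold below untreated MT-HGF cells (-0.56 ± 0.076) and 1.41-fold above RAS cells (0.49 ± 0.076). All 6 differences were called, and each kept its call under all 20 alternatives, many of which leave the difference itself unchanged.

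Cyp26b1, the cytochrome that hydroxylates and so inactivates retinoic acid, had group means within 0.34 log2 units of one another, against 0.33 for Rdh10. By array, the log2 values were 8.64, 8.33 and 8.25 in wild type, 8.20, 7.97 and 8.05 in RAS cells, 8.39, 8.23 and 8.24 in MT-HGF cells, and 8.30, 8.27 and 8.27 with AG1478. The RAS arrays lay below all others, and the remaining groups overlapped. RAS cells were below wild type by -0.34 ± 0.093, a call lost without RAS replicate 2 (-0.28); without wild-type replicate 1 the difference was -0.22 and still called. MT-HGF and AG1478-treated cells differed from wild type by -0.12 ± 0.093 and -0.13 ± 0.093, from RAS cells by 0.21 ± 0.093 each, and from one another by -0.01 ± 0.093, none of them called.

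Rarb, a retinoic acid receptor whose own promoter is a textbook retinoic acid target, was not above the array background on any of the 12 arrays. Its log2 values were 6.50, 6.57 and 6.55 in wild type, 6.40, 6.46 and 6.49 in RAS cells, 6.33, 6.32 and 6.37 in MT-HGF cells, and 6.22, 6.33 and 6.45 with AG1478. The groups lie within 0.21 log2 units of one another at this level, and no fold change is given. Measured against all 1260 chemosensory clusters, a lower background of 6.09 to 6.34, Rarb was above it on 11 of 12 arrays. Its promoter (chr14:16575427-16575726, minus strand, RefSeq, GRCm38.p6) is shown because it alone among the 7 promoters searched holds a direct repeat of the motif, in capitals with a further motif upstream.
Rarb: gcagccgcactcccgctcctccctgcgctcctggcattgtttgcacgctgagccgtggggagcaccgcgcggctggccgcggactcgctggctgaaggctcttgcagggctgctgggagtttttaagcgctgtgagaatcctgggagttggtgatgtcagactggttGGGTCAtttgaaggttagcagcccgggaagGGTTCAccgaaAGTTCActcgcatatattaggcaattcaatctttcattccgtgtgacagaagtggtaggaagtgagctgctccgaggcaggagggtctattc
The repeat reads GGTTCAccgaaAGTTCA, 17 bases at -53 to -37, with 5 bases between the motifs, and the other motif, GGGTCA, lies at -83 to -78. Such a repeat with 5 bases between stood in 32 of the 32851 promoters (0.0974%), and repeats with 1 or 2 between in 0.222% and 0.268%. These are matches of letters in a window, not measured binding.

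Rarg, the main retinoic acid receptor of epidermis, was well above background throughout and moved over a narrow range. The arrays gave log2 values of 9.55, 9.64 and 9.60 in wild type, 9.26, 9.25 and 9.35 in RAS cells, 9.81, 9.84 and 9.87 in MT-HGF cells, and 9.98, 9.87 and 10.25 with AG1478. No pair of groups overlapped, with RAS cells lowest and AG1478-treated cells highest. RAS cells were below wild type by -0.31 ± 0.082, and MT-HGF cells above it by 0.24 ± 0.082, a call lost without wild-type replicate 1 (0.22) or 3 (0.24) or MT-HGF replicate 2 (0.24) or 3 (0.23). AG1478-treated cells were above wild type by 0.44 ± 0.082 and above RAS cells by 0.75 ± 0.082 (1.68-fold), and MT-HGF above RAS cells by 0.56 ± 0.082. AG1478-treated and untreated MT-HGF cells differed by 0.20 ± 0.082, not called, although their arrays did not overlap.

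With v-rasHa, the dehydrogenases Dhrs9, Rdh10 and Rdh12, the retinal oxidising enzymes Aldh1a3 and Aox4 and the binding protein Crabp2 were higher, and Cyp26b1 and Rarg were lower. Of the 9 genes 6 were called higher (Dhrs9, Rdh10, Rdh12, Aldh1a3, Aox4 and Crabp2), where 12.6% of all genes were, and 2 lower, where 19.9% of all genes were. Without RAS replicate 2, only Rarg was called lower. The count of genes called higher was 4 without wild-type replicate 1 or 2. It was 5 without RAS replicate 1, 2 or 3, and 5 with values centred on array medians. Dhrs9, Aldh1a3 and Crabp2 were at least 2-fold higher. The median difference of the 9 was 0.31, and that of all genes -0.02. Among 56 other tested genes of the pathway and its known targets, 11 were higher and 12 lower. Of the 15 in retinol and retinal interconversion 4 were higher and 3 lower. Adh1, among the lower, was at background in both groups, and Rdh9, among the higher, was at background in wild type. Of the 19 retinoic acid targets among the 56, 2 were higher (10.5%) and 6 lower (31.6%), with Hoxb5 at background in both groups. In each of the 6 comparisons 16 to 18 of these 56 lay at background in both groups, and 0 to 3 of the calls were among them. Some of them, such as Stra6l, Rdh5, Cyp26c1 and Tgm2, were above the lower background on all 12 arrays. Lipe, the hormone-sensitive lipase that also hydrolyses retinyl esters, rose 4.33-fold (2.11 ± 0.076, limma with Benjamini-Hochberg adjustment, adjusted p = 1.44e-12). The retinol dehydrogenases Sdr16c6 (1.44 ± 0.11, adjusted p = 1.25e-08) and Rdh1 (1.28 ± 0.10, adjusted p = 4.82e-08) rose as well. Adh7, an alcohol dehydrogenase active on retinol, fell by 0.72 (adjusted p = 1.93e-06) and Retsat, the retinol saturase, by 0.68 (adjusted p = 5.43e-05). Among 4 further receptors, Rara, Rxra and Rxrb fell and Ppard, which can bind retinoic acid, rose. The 2 tested enzymes of retinal oxidation beside the members, Aox1 and Aox2, were at background.

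With the HGF transgene, Dhrs9, Rdh12, Aldh1a3, Aox4, Crabp2 and Rarg were called higher than in wild type, 6 of 9 genes where 17.1% of all genes were. The count of higher genes was 5 without wild-type replicate 1 or 3 or MT-HGF replicate 2 or 3. Rarb was the only gene of the 9 called lower, at background in both groups, where 23.9% of all genes were; without wild-type replicate 2 or 3 or MT-HGF replicate 1 or 2 the count was 0. Dhrs9, Rdh12, Aldh1a3 and Crabp2 were at least 2-fold higher. The median of the 9 was 0.81, and of all genes -0.03. Of the 56 other pathway genes and targets 19 were higher and 9 lower. In the list of retinol and retinal interconversion 8 of 15 were higher and 4 lower. Adh1, among the lower, was again at background in both groups, and Rdh9, among the higher, in wild type. Of the 19 retinoic acid targets 3 were higher (15.8%) and 2 lower (10.5%). Lipe rose 3.85-fold (adjusted p = 3.41e-12), Rarres1, a gene first found through its induction by retinoids, 3.44-fold (1.78 ± 0.090, adjusted p = 7.9e-11), Sdr16c6 3.26-fold (adjusted p = 9.86e-10) and Rdh1 2.15-fold (adjusted p = 2.15e-07). Adh7 fell by 0.69 (adjusted p = 2.1e-06) and the receptor Rara by 0.59 (adjusted p = 1.51e-05). This comparison and the preceding one share the wild-type arrays. Rdh1 and Rdh9, and Sdr16c5 and Sdr16c6, are close paralogs, and probes common to a pair could not be told apart.

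**Figure D2:**
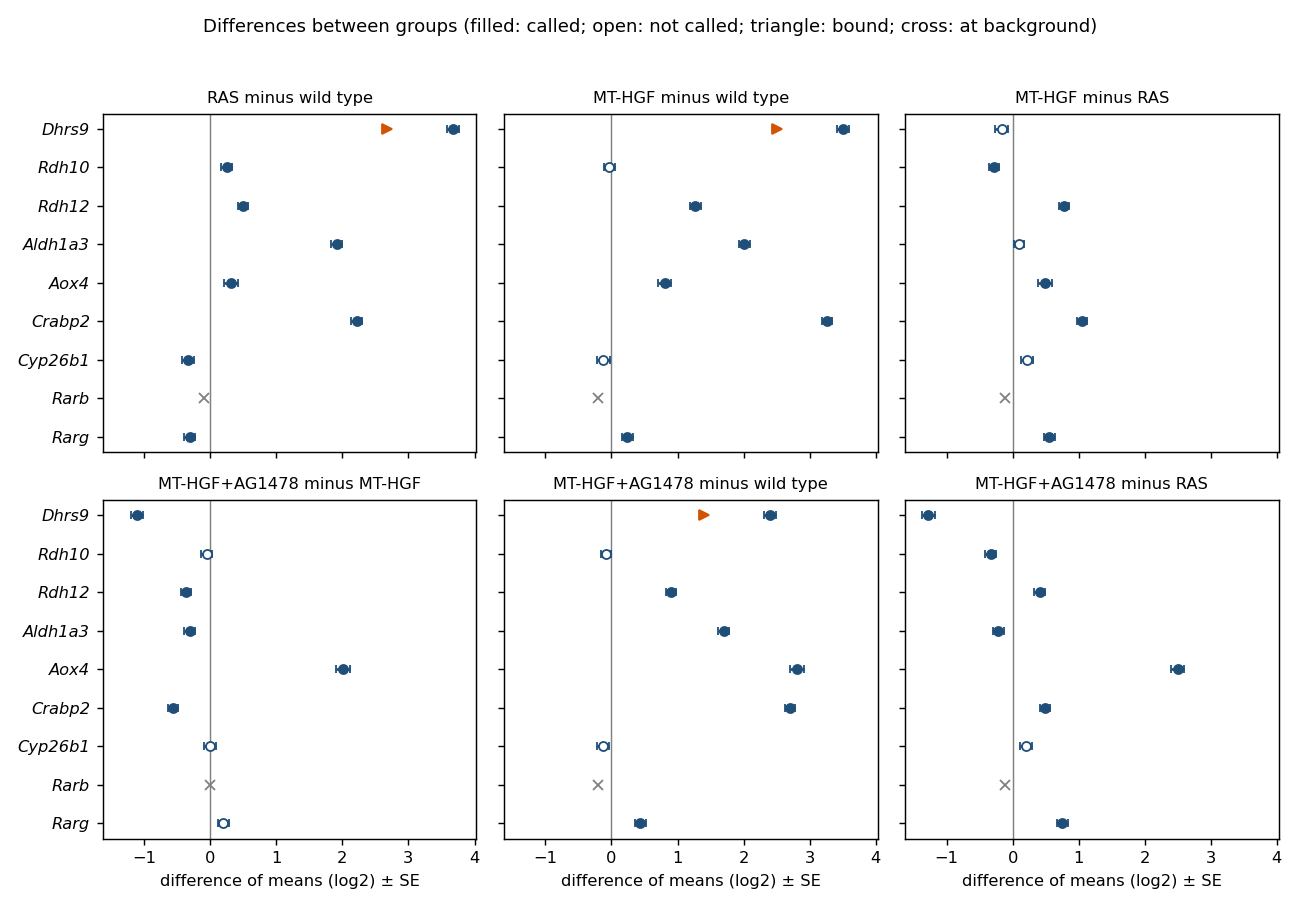
Difference of group means (horizontal axis, log2, with the SE of limma's fit) of the 9 retinoid genes in the 6 comparisons. Filled points were called, open points were not, triangles are the lower bound where the lower group was at background, and crosses mark Rarb, at background in both groups. Dhrs9, Aldh1a3 and Crabp2 lie farthest right in RAS and MT-HGF cells against wild type, and with AG1478 Aox4 moves right while Dhrs9, Rdh12, Aldh1a3 and Crabp2 lie left of 0.

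Set directly against RAS cells, MT-HGF cells had more Rdh12, Aox4, Crabp2 and Rarg and less Rdh10. These were 4 genes called higher and 1 lower, where 13.4% and 12.6% of all genes were. Without MT-HGF replicate 2, Rdh10 was not called and the count of lower genes was 0. Crabp2 alone of the 9 was at least 2-fold higher. The median of the 9 was 0.21, and of all genes -0.02. Of the other pathway genes and targets 15 were higher, and Crabp1, the paralog of Crabp2, was the single one lower (-0.27, adjusted p = 0.00968), though the count was 0 without RAS replicate 1 or MT-HGF replicate 2 and 2 without wild-type replicate 1 or any AG1478 replicate. Rarres1 was 2.91-fold higher (adjusted p = 5.13e-09), the short-chain dehydrogenase Dhrs7 2.24-fold (adjusted p = 3.99e-07), the cellular retinol-binding protein Rbp2 2.10-fold (adjusted p = 1.51e-06) and Bhlhe40, a transcription factor known as a retinoic acid target, 1.60-fold (adjusted p = 1.91e-05). Of the 19 retinoic acid targets 6 were higher, Hoxa2 among them at background in both groups, and 0 lower.

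With AG1478, MT-HGF keratinocytes had more Aox4 and less Dhrs9, Rdh12, Aldh1a3 and Crabp2 than without it. Of the 9 genes 1 was called higher, where 6.57% of all genes were, and 4 lower, where 9.91% of all genes were. Without AG1478 replicate 2, Rarg (0.28) was called too, and 2 genes were higher. Aox4 rose and Dhrs9 fell by at least 2-fold. In Dhrs9, Rdh12, Aldh1a3 and Crabp2 the level with AG1478 remained above that of wild type on every array. The median of the 9 was -0.06, and of all genes 0.02. Among the other pathway genes and targets 7 were higher and 4 lower. Of the 19 retinoic acid targets 1 was higher and 0 lower. Rbp2 rose 1.88-fold (0.91 ± 0.11, adjusted p = 1.15e-05), Sdr16c6 1.66-fold (adjusted p = 0.00011), Sdr16c5 1.59-fold (adjusted p = 0.00314) and Cyp2s1, a cytochrome able to oxidise retinoic acid, 1.51-fold (adjusted p = 0.000513). Lipe fell by 0.75 (adjusted p = 3.18e-06). The AG1478 arrays carry other extraction and handling notes than the rest, and no vehicle-treated array was used here, so the compound and that handling cannot be told apart in any comparison of this group.

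Against wild type, AG1478-treated MT-HGF cells had 6 of the 9 genes called higher (Dhrs9, Rdh12, Aldh1a3, Aox4, Crabp2 and Rarg), where 16.8% of all genes were. Only Rarb, at background, was called lower, where 26.2% of all genes were, and the count was 0 without wild-type replicate 2 or 3 or AG1478 replicate 1. Dhrs9, Aldh1a3, Aox4 and Crabp2 were at least 2-fold higher. The median of the 9 was 0.90, and of all genes 0.0036. Among the other pathway genes and targets 22 were higher and 5 lower, with Adh1, among the lower, at background in both groups. Of the 19 retinoic acid targets 7 were higher, Lrat and Hoxa2 among them at background in both groups, and 1 lower. Sdr16c6 was 5.42-fold higher (adjusted p = 1.66e-11), Rarres1 3.95-fold (adjusted p = 2.74e-11), Rbp2 3.33-fold (adjusted p = 9.23e-10) and Rdh1 2.34-fold (adjusted p = 6.88e-08). Adh7 was at least 1.86-fold lower, at background with AG1478, and Crabp1 was lower by -0.61 ± 0.071 (adjusted p = 2.68e-06).

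Against RAS cells, AG1478-treated MT-HGF cells had more Rdh12, Aox4, Crabp2 and Rarg and less Dhrs9, Rdh10 and Aldh1a3. These were 4 genes called higher, where 16.3% of all genes were, and 3 lower, where 20.4% were. Aox4 was at least 2-fold higher and Dhrs9 at least 2-fold lower. The median of the 9 was 0.21, and of all genes 0.02. Among the other pathway genes and targets 20 were higher and 6 lower, or 3 lower without RAS replicate 3. Of the 19 retinoic acid targets 10 were higher, Hoxa2, Hoxb4 and Hoxb5 among them at background in both groups, and 2 lower. Rbp2 was 3.95-fold higher (adjusted p = 5.38e-10), Rarres1 3.34-fold (adjusted p = 3.81e-10), Dhrs7 2.69-fold (adjusted p = 1.56e-08) and Cyp2s1 2.09-fold (adjusted p = 4.77e-07). Lipe fell by 0.91 (adjusted p = 1.04e-07).

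**Figure D3:**
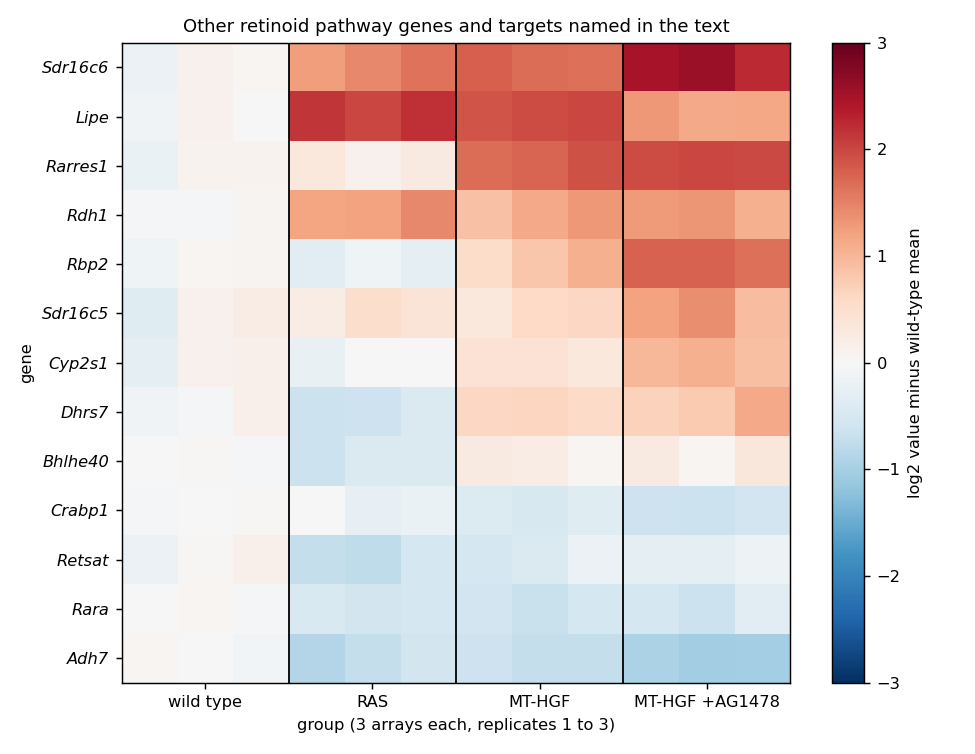
Log2 value minus the wild-type mean (colour) of the other retinoid pathway genes and targets named in the text (rows) on the 12 arrays (columns, 3 per group). Lipe is highest in RAS cells, at 2.11 on average, while Sdr16c6, Rarres1 and Rbp2 are highest with AG1478, at 2.44, 1.98 and 1.74 on average.

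The genes whose profile lay closest to that of a member were taken by the root mean square difference of centred log2 values over the 12 arrays, for the 5 genes whose group means ranged over at least 1 log2 unit. For Dhrs9 they were the serine proteases Prss22 (0.194 log2 units) and Klk9 (0.200) and the chemokine Ppbp (0.212). For Aldh1a3 they were Aif1l (0.0677), Dynap (0.116) and Cnfn (0.129), of which Cnfn encodes the cornified envelope protein cornifelin. For Crabp2 they were Pdpn, the membrane glycoprotein podoplanin (0.123), Serpinb11 (0.223) and Sprr2d, a small proline-rich cornified envelope protein (0.224). For Rdh12 they were Sqle, the squalene epoxidase of cholesterol synthesis (0.113), Moxd1 (0.121) and Sema4a (0.121). For Aox4 they were the kallikrein protease Klk14 (0.182), the acute phase protein Orm1 (0.242) and Susd2 (0.252). These are likenesses over 12 arrays that share 4 group levels. Some profiles lie partly at background, where values have no order: Susd2 was above it on 6 of 12 arrays, Dhrs9 and Serpinb11 on 9, Prss22 on 10 and Klk14 and Orm1 on 11.

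**Figure D4:**
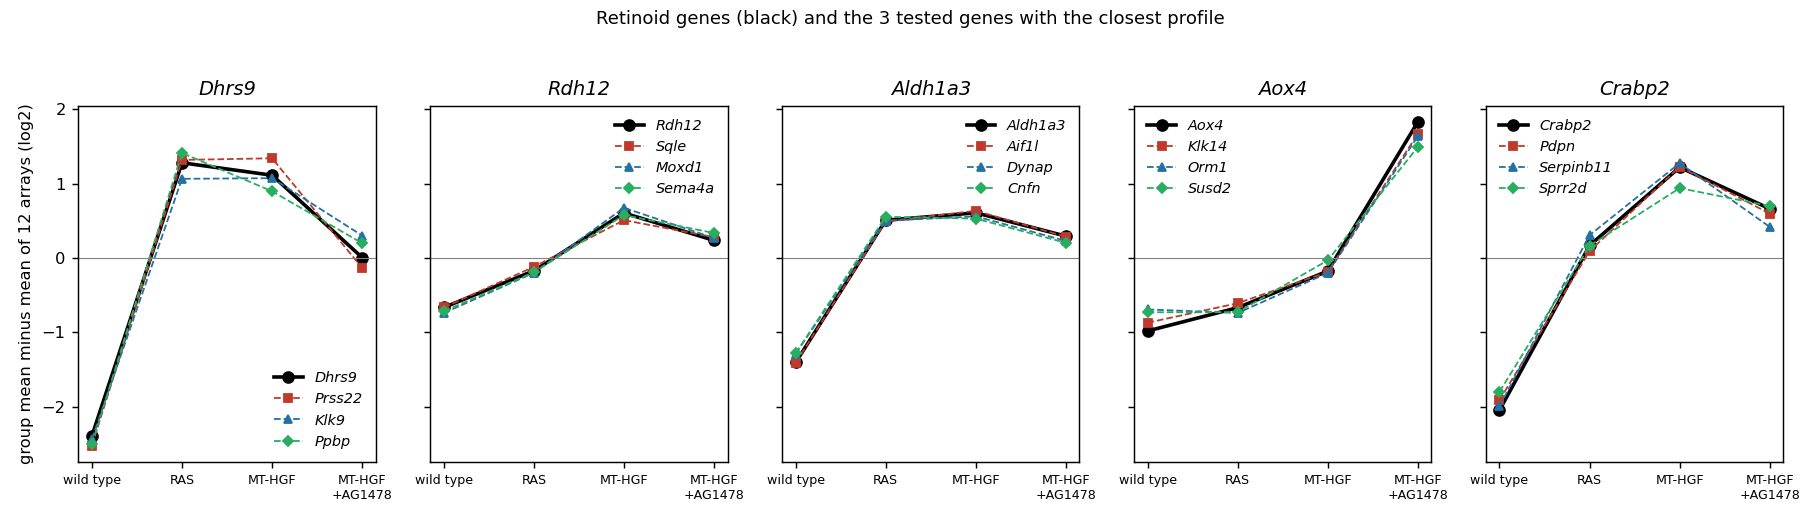
Group mean minus the gene's mean over the 12 arrays (vertical axis, log2) in the 4 groups (horizontal axis) for Dhrs9, Rdh12, Aldh1a3, Aox4 and Crabp2 (black) and the 3 tested genes closest to each (coloured, dashed). The Aldh1a3 profile and that of Aif1l nearly coincide, with a root mean square difference of 0.0677, while the genes nearest to Aox4 rise less with AG1478, to 1.67, 1.64 and 1.49 against 1.83.

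Markers of other cell states moved beside these genes, and their counts are to be read beside the shares over all genes. Against wild type, 12.6% of all genes were called higher and 19.9% lower in RAS cells. The shares were 17.1% and 23.9% in MT-HGF cells, and 16.8% and 26.2% with AG1478. Against RAS cells they were 13.4% and 12.6% in MT-HGF cells, and 16.3% and 20.4% with AG1478. For AG1478-treated against untreated MT-HGF cells they were 6.57% and 9.91%. Of 15 late differentiation markers 13 were higher and 2 lower in RAS cells than in wild type, 13 and 2 in MT-HGF cells, and 13 and 1 with AG1478. Their mean log2 value per array lay at 9.64 to 9.73 in wild type, 10.63 to 10.79 in RAS cells, 10.22 to 10.48 in MT-HGF cells and 10.84 to 10.92 with AG1478. Dhrs9, Rdh12, Aldh1a3, Aox4 and Crabp2, like this list, had their lowest mean in wild type. By its mean the list was highest with AG1478, as were Aox4 and Rarg. Its markers were split there: 6 were called higher and 4 lower than in untreated MT-HGF cells, and 5 and 4 than in RAS cells. By median difference from wild type the list was highest in MT-HGF cells, at 1.23, against 1.08 in RAS cells and 1.07 with AG1478. Rdh12, Aldh1a3 and Crabp2 were highest in MT-HGF cells and Dhrs9 and Rdh10 in RAS cells. Of 18 fibroblast markers 1 was higher and 13 lower in RAS cells than in wild type, 4 and 12 in MT-HGF cells and 4 and 12 with AG1478, while against RAS cells 11 were higher and 3 lower both in MT-HGF cells and with AG1478. Their means were 8.68 to 8.71 in wild type, 8.12 to 8.13 in RAS, 8.34 to 8.44 in MT-HGF and 8.37 to 8.43 with AG1478. Lum was above background on 0 of 12 arrays, and above the lower background of all chemosensory clusters on 6. Of 10 leukocyte markers 2 were higher and 4 lower in RAS cells than in wild type, 2 and 4 in MT-HGF cells, and 1 and 4 with AG1478. Of these 10, 4 to 5 were above background on each wild-type array, 1 to 2 on each RAS array and 1 on each MT-HGF and AG1478 array, with means of 6.79 to 6.96, 6.65 to 6.77, 6.56 to 6.64 and 6.57 to 6.74. Of 12 melanocyte markers 9 were lower in MT-HGF than in wild-type cells, and 9 were lower in AG1478-treated than in wild-type cells. Between AG1478-treated and untreated MT-HGF cells 0 were called. In RAS cells 1 was lower than in wild type. Melanocyte means were 9.25 to 9.50 in wild type, 9.36 to 9.52 in RAS, 8.92 to 9.11 in MT-HGF and 8.92 to 9.02 with AG1478. The part of these cells in the results on the retinoid genes was not tested. The notes on the arrays other than those with AG1478 all mention a 3-day RAS transduction. This leaves the handling of the controls in that step unclear. The labels do not say whether replicates came from separate animals, so the adjusted p-values rest on the spread among arrays, which may be technical.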

How the data were processed

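The values are the authors' deposited log2 expression values of 35511 transcript clusters, made with RMA (background correction, quantile normalization and probe summary) per the submitters' processing notes. The RMA version and genome build were not given in the sources used here. Platform annotation gave 21789 clusters a single symbol, and 21698 of these matched current gene records. To be kept, a cluster had to exceed the 30th percentile of its array on 3 or more of the 12 arrays, and a gene with several was represented by the one with the highest mean. Group means were modelled on all 12 arrays, without covariates, in limma (version 3.58.1; R version 4.3.3; data.table package, version 1.17.8), with 8 residual and 8.02 prior degrees of freedom, two-sided, with Benjamini-Hochberg adjustment over 15868 genes. The script was tested on simulated data.

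Where all 3 arrays of the lower group lay at or below background, the fold change is a lower bound, the higher group's mean against the mean of the background percentiles. RMA compresses differences near background. Members and lists were chosen with earlier results of these data known. The adjusted p-values printed for list genes are therefore a description too, not an independent test. From the lists, the called genes with at least a 1.5-fold difference were named, at most the 4 largest in each direction; receptors, Aox1, Aox2 and, for MT-HGF against RAS, Crabp1 were named after their values were seen. Groups follow the labels, which give 4 where the series' design text gives 3. Of the 71 further genes named in the lists, 67 were on the arrays and 56 were tested. Alternatives were other filters, cluster choice, centring, array weights, a replicate block, the 6 arrays compared alone, a trended prior and leaving out each array. Same-numbered arrays were checked for pairing: of 18 pairs 7 had deviations correlated over 0.1 (range -0.44 to 0.528), in no comparison all 3, so the numbers were not taken as pairs. Among the wild-type, RAS and MT-HGF arrays, numbers 1 and 3 correlated at 0.269 to 0.528 and number 2 at -0.244 to 0.087. Pairing among those arrays is therefore not excluded, and the replicate block is the alternative that allows for it. With 3 arrays a group, their number limits the precision.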

Additional observations from a re-analysis of the deposited data

How the results depend on the processing

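Of 1074 member differences recomputed under alternatives, 1022 kept direction and side of the threshold. A call was lost in 35 and gained in 9, and 8 changed sign, each in a difference near 0. Many alternatives could change only the call, since they left the difference itself as it was. These were the other filters, the cluster choice, the 6 arrays alone, the replicate block, the trended prior and leaving out an array of a group not compared. Their kept directions are no further support. The differences of Dhrs9, Crabp2, Rdh12 and Aldh1a3 from wild type, and those of Aox4 other than RAS against wild type, kept their calls throughout. With array weights the other pathway genes called lower were 19 for RAS against wild type, 3 for MT-HGF against RAS and 9 for AG1478-treated against wild type, and those called higher with AG1478 were 13. Over all genes, array weights gave 3100 higher and 4996 lower for RAS against wild type, 4367 higher for AG1478-treated against wild type and 1795 higher with AG1478, where leaving out MT-HGF replicate 2 gave 683. With them Cyp26b1 differed by 0.017 between AG1478-treated and untreated MT-HGF cells and by 0.0036 between AG1478-treated and wild-type cells. The pathway genes called lower in MT-HGF against RAS numbered 2 with the filter at the array median, only the 6 arrays, a trended robust prior or the replicate block. The replicate block otherwise gave calls to Cyp26b1 in MT-HGF (0.21) and AG1478-treated (0.21) against RAS cells and changed no other call of the 9 genes. With the filter at the array median Rarb was not tested, so 0 of the 9 genes were lower in MT-HGF or AG1478-treated than in wild-type cells; with only the 6 arrays the latter count was also 0. Leaving out each array gave 1 to 2 of the 9 genes lower for RAS against wild type, 0 to 1 lower for MT-HGF against wild type, for MT-HGF against RAS and for AG1478-treated against wild type, and 1 to 2 higher with AG1478. Genes called higher were 4 to 6 for RAS and 5 to 6 for MT-HGF against wild type. They were 4 to 5 for MT-HGF and for AG1478-treated against RAS cells. Genes called lower were 3 to 4 for AG1478-treated against untreated MT-HGF cells and 2 to 3 for AG1478-treated against RAS cells. Pathway genes called lower ranged over 0 to 2 for MT-HGF against RAS and 3 to 6 for AG1478-treated against RAS. Differences that changed sign were Rdh10 in MT-HGF against wild type (-0.0493 to 0.0008), AG1478-treated against MT-HGF (-0.14 to 0.036) and AG1478-treated against wild type (-0.17 to 0.0051), and Cyp26b1 (-0.035 to 0.043) and Rarb (-0.065 to 0.050) in AG1478-treated against MT-HGF cells. Against the lower background of all chemosensory clusters the Dhrs9 bounds were 3.36, 3.19 and 2.08 log2 units. The cause of these shifts was not tested.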
